A study of Mus musculus with 12 samples.

Results

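The 8 genes described here are the Wnt ligands Wnt10b, Wnt4, Wnt5a, Wnt7a and Wnt7b, the TCF/LEF transcription factors Lef1 and Tcf7l2, and Axin2, of 19312 genes in the deposited table. They were chosen by symbol, with the levels of Wnt10b over the 4 groups already known, so the differences of Wnt10b are given as a description with no test. Forebrain RNA was sequenced from 12 male C57BL/6N mice at postnatal day 25, with 3 mice in each group and 1 mouse per library. WT-Veh and WT-Mem were wild-type mice, and KO-Veh and KO-Mem carried a homozygous deletion of a pair of exons of Shank2, a scaffold protein of excitatory synapses. Memantine (Mem), which blocks NMDA receptors, was given by mouth at 20 mg/kg in 2 doses a day from postnatal day 7 to 21. Vehicle (Veh) was the 0.1% saccharin solution without the drug, so that every mouse of the 4 groups was dosed. The methods describe forebrain without cerebellum, while the labels give whole brain. The deletion is not limited to a cell type, and the labels do not say which mice were littermates.

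Wnt ligands are secreted lipid-modified proteins that bind Frizzled receptors and LRP5/6 coreceptors on nearby cells. In the canonical branch this stops the Axin-APC destruction complex from degrading β-catenin, which then enters the nucleus and drives transcription with TCF/LEF factors. Axin2, Lef1, Nkd1 and Notum are among the targets that feed back on the pathway, whereas other ligands, such as Wnt5a, act largely through β-catenin-independent branches. In the forebrain the pathway is known for patterning, for vessel growth driven by Wnt7a and Wnt7b, for synapse formation, and for the Tcf7l2-dependent identity of thalamic neurons and maturation of oligodendrocytes.

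The sequence before the annotated start is shown for Wnt10b, the member whose level differed most between the groups, for Axin2, the target most often used as a readout of the canonical branch, and for Tcf7l2, a nuclear factor of that branch. All are from RefSeq on GRCm38.p6, run 5′ to 3′ on the strand of the gene and end at the base before the start. Capitals mark letters that TCF/LEF factors are known to bind (CTTTG with AA, AT, TA or TT after it, on either strand). In the stretches shown, they were searched for in the 250 bases before the start.
Wnt10b, chr15:98778151-98778400, minus strand: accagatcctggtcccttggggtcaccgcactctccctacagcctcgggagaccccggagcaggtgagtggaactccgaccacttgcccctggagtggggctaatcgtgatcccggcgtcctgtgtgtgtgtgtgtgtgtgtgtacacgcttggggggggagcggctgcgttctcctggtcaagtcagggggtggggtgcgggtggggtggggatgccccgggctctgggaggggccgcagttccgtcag
Axin2, chr11:108920099-108920348, plus strand: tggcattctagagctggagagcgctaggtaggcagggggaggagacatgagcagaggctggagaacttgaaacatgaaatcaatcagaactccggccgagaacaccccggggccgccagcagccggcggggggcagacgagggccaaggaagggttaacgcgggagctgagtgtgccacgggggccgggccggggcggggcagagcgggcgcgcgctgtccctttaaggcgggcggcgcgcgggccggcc
Tcf7l2 upstream start, chr19:55741560-55741809, plus strand: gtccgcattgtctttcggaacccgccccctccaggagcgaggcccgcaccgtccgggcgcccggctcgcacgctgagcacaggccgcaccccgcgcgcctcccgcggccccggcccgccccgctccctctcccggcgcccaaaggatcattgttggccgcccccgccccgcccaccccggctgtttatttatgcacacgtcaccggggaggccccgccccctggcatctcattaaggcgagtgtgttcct
Tcf7l2 internal start, chr19:55895071-55895320, plus strand: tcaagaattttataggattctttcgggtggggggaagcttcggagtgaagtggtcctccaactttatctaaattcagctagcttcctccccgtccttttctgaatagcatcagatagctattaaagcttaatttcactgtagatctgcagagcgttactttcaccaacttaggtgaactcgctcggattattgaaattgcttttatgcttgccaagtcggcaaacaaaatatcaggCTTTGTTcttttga
The stretches of Wnt10b and Axin2 held none of these letters, and the internal start of Tcf7l2 held CTTTGTT, beginning 14 bases before the start. For the counts that follow, the whole promoter window of each entry was searched, without cutting it to these 250 bases. Of the 10 windows of the 6 members with an entry, 2 held a match, and 5544 of all 32851 windows (16.9%) did. Windows of the Wnt pathway lists used below held a match in 13 of 98 (13.3%). Wnt5a and Wnt7b had no entry.

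Shank2, the check of the labels, had 8000 ± 498 normalized read counts (SD, n = 3) for WT-Veh and 7880 ± 697 for WT-Mem mice, against 2927 ± 178 for KO-Veh and 2900 ± 247 for KO-Mem mice, so every mouse matched its genotype. A value of about 1 stood for 1 read (0.872 to 1.13 by mouse). The sums over genes, 30373849 to 31199251, were taken after the normalization, so they are not depths, and they were not equal between mice. KO-Veh replicate 3 stood apart in markers of cerebellar neurons, whose 6 genes summed to 5553 there and to between 3021 and 3908 in the other 11 mice, with Gabra6 at 0 in at least 1 mouse. Gabra6 (254), Cbln3 (745), Pcp2 (380), Car8 (807) and Ppp1r17 (129) were each highest in that mouse. Calb1, at 3239 there and the largest part of the sum, was not. WT-Veh replicate 3 came next for Gabra6 (12.9), Cbln3 (65) and Pcp2 (21.5).

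Per length, Wnt10b was the lowest of the 8 genes in WT mice, and it was higher in every KO mouse than in every WT mouse. Wnt10b (ENSMUSG00000022996) lies on chromosome 15, 98770712 to 98778150 (GRCm38, minus strand), and encodes a canonical ligand best known for restraining fat cell formation and promoting bone formation. The WT-Veh mice had 50.2, 27 and 32.6 normalized read counts, and the WT-Mem mice had 34.6, 44.4 and 61.8. The KO-Veh mice had 86.6, 90.2 and 88.2. The KO-Mem mice had 194, 142 and 155. Neither KO group overlapped any other group, whereas WT-Veh and WT-Mem overlapped each other. The group means were 36.6 ± 12.1, 46.9 ± 13.8, 88.3 ± 1.85 and 164 ± 27 (SD, n = 3 each), and the mean of KO-Mem was 4.48 times that of WT-Veh.

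On the log2 scale (value plus 1), Wnt10b was higher by 1.30 (SE 0.24) in Veh-K/W, which is KO-Veh against WT-Veh, and by 1.81 (SE 0.23) in Mem-K/W, which is KO-Mem against WT-Mem. In KO-M/V, KO-Mem against KO-Veh, the difference was 0.87 (SE 0.16), and in WT-M/V, WT-Mem against WT-Veh, it was 0.36 (SE 0.30). The difference of the differences, which asks whether memantine acted unequally in KO and WT mice, was 0.51 (SE 0.35). These comparisons share groups with one another, so their values do not stand alone. Leaving out 1 mouse at a time moved the Veh-K/W difference between 1.11 and 1.54, the Mem-K/W difference between 1.61 and 2.02 and the KO-M/V difference between 0.74 and 0.97. Without KO-Veh replicate 3 the Veh-K/W difference was 1.30.

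The order WT below KO-Veh below KO-Mem, with no overlap at either step, was found for 41 of 17655 genes with a mean of at least 10 (0.232%). Wnt10b was 1 of them, and no other gene of the 8 pathway lists was. The reverse order was found for 53 genes (0.3%), none of them in the lists. Over both treatments, all 6 KO values lay above all 6 WT values for Wnt10b, and the genotypes did not overlap in either direction for 717 genes (4.06%). Since Wnt10b was chosen for this pattern, these counts only place it.

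**Figure D1:**
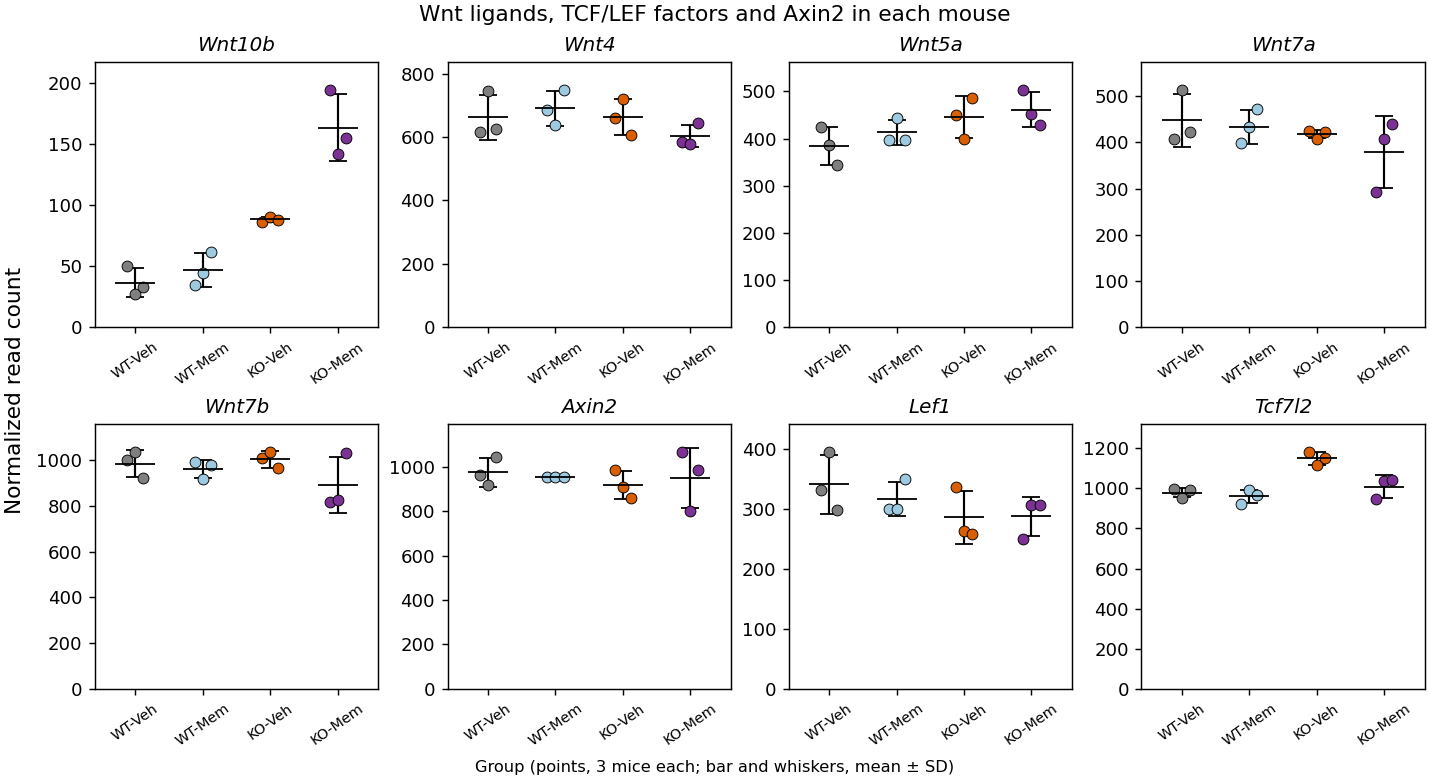
Normalized read counts (vertical axes, each starting at 0) of the 8 genes in each mouse, with the 4 groups along the horizontal axes. Points are mice, and the bar with whiskers is the mean ± SD of 3 mice. Wnt10b runs from 27 to 61.8 in WT mice and from 86.6 to 194 in KO mice, while in the other 7 panels WT and KO mice overlap.

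The genes next to Wnt10b on the chromosome gave smaller differences. Wnt1, the adjacent ligand gene with a role in midbrain development, had only 14.9 normalized read counts on average and differed by 0.59 (SE 0.29, adjusted p = 0.183 in the limma test of genotype over both treatments). Arf3, a small GTPase gene on the other side, differed by 0.05 (adjusted p = 0.609 by limma), Fkbp11 beyond it by 0.33 (adjusted p = 0.309 by limma) and Ddn by -0.02 (adjusted p = 0.805 by limma). No annotated gene overlapped Wnt10b. Its 7 annotated transcripts are all protein coding.

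None of the other 4 ligands passed the genotype test, which compares the 6 KO with the 6 WT mice with treatment as a term and calls 1907 of 17655 genes (10.8%) at an adjusted p under 0.05. Wnt7b, per length the highest of the 5 ligands among the 8 genes, ranged from 917 to 1034 normalized read counts in WT mice (median 985) and from 815 to 1033 in KO mice (median 986). Its log2 difference was -0.05 (95% interval -0.19 to 0.09, adjusted p = 0.669 by limma). Wnt7a, which with Wnt7b signals to brain endothelial cells, ranged from 398 to 512 in WT mice (median 427) and from 292 to 440 in KO mice (median 415), with a difference of -0.15 (95% interval -0.36 to 0.05, adjusted p = 0.313 by limma). The lowest of these values, 292, was KO-Mem replicate 1, and the genotypes overlapped for both genes. Wnt4, which acts in kidney and gonad development and at forming synapses, ranged from 616 to 747 in WT mice (median 662) and from 579 to 721 in KO mice (median 626), with a difference of -0.10 (95% interval -0.25 to 0.06, adjusted p = 0.396 by limma).

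Wnt5a was the only one of these 4 with an unadjusted p under 0.05, which 29.5% of all genes had. Its values were 424, 387 and 344 for WT-Veh and 398, 443 and 398 for WT-Mem mice, against 451, 399 and 487 for KO-Veh and 502, 453 and 429 for KO-Mem mice. KO mice were higher on average, with overlap. The log2 difference was 0.19 (SE 0.07, adjusted p = 0.112 by limma) and so did not pass, and it was 0.15 without KO-Veh replicate 3. Wnt5a, the main ligand of the β-catenin-independent branches, overlaps Gm2670 on the other strand by gene bounds. Wnt7b, Axin2 and Lef1 each have a partner on the other strand as well, and Lef1 and Tcf7l2 overlap an annotated gene on their own strand. The library kit does not keep strand, so reads from any shared exon sequence could not be told apart by strand. Whether exons of these pairs overlap was not tested.

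Tcf7l2 was highest in KO-Veh mice and had the smallest p of the 7 members tested, but it passed in no comparison. Its values were 995, 952 and 989 for WT-Veh and 922, 989 and 966 for WT-Mem mice, against 1180, 1116 and 1153 for KO-Veh and 944, 1038 and 1043 for KO-Mem mice. All KO-Veh mice lay above every other mouse, and KO-Mem overlapped WT-Mem. In Veh-K/W the log2 difference was 0.23 (SE 0.07, unadjusted p = 0.00676, adjusted p = 0.211 by limma). The values did not overlap there, as for 20.4% of the genes. In KO-M/V it was -0.19 (SE 0.07, unadjusted p = 0.0247, adjusted p = 0.554 by limma), again with no overlap, as for 13.9% of genes. In Mem-K/W it was 0.07 and in WT-M/V -0.03, and the interaction of genotype and memantine was -0.16 (95% interval -0.37 to 0.05, adjusted p = 0.947 by limma). Over both treatments the difference was 0.15 (SE 0.05, adjusted p = 0.0649 by limma). It was 0.17 with an adjusted p of 0.0471 by limma when every mouse was scaled to the same sum.

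Because Tcf7l2 is known in thalamic neurons and in the oligodendrocyte lineage, markers of both were set beside it. None of 8 thalamic markers passed the genotype test, against 10.8% of all genes (median log2 difference -0.01). The thalamic sum was 12615 to 14122 for WT-Veh and 13218 to 14030 for WT-Mem mice. It was 13230 to 14429 for KO-Veh and 13350 to 13698 for KO-Mem mice. Of 6 oligodendrocyte markers, 5 were downregulated in KO mice, against 5.91% of all genes (median -0.32). The oligodendrocyte sum was 329081 to 407701 for WT-Veh and 294380 to 345277 for WT-Mem mice. It was 285943 to 305397 for KO-Veh and 237444 to 280479 for KO-Mem mice. No marker of either list was at 0 in any mouse. All 6 oligodendrocyte markers were lower in Veh-K/W (median -0.28), Mem-K/W (-0.36), KO-M/V (-0.25) and WT-M/V (-0.16). In the same order Tcf7l2 differed by 0.23, 0.07, -0.19 and -0.03. Neither Tcf7l2 nor any of the 6 markers passed in these 2-group comparisons. In bulk RNA, fewer cells of a type and less RNA per cell cannot be told apart, and the part of cell composition in the result was not tested.

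Lef1, the other TCF/LEF member, ranged from 298 to 395 normalized read counts in WT mice (median 316) and from 250 to 337 in KO mice (median 284). The difference was -0.20 (95% interval -0.40 to 0.01, adjusted p = 0.187 by limma), opposite in sign to Tcf7l2, with overlap of the genotypes. Lef1 marks thalamic neurons and also brain endothelium, where 5 of 6 markers were downregulated, against 5.91% of all genes (median -0.27). The part of this change in the Lef1 value was not tested. The endothelial sums were 7000 to 7338 for WT-Veh and 6321 to 6777 for WT-Mem mice, against 5667 to 6026 for KO-Veh and 5675 to 6373 for KO-Mem mice.

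Axin2, a scaffold of the destruction complex and a direct β-catenin target, showed no detectable difference. Its values were 964, 918 and 1045 for WT-Veh and 955, 953 and 957 for WT-Mem mice, against 986, 910 and 862 for KO-Veh and 1067, 800 and 986 for KO-Mem mice. The groups overlapped, and the highest and the lowest mouse were both KO-Mem. The log2 differences were -0.09 in Veh-K/W (95% interval -0.27 to 0.10), -0.02 in Mem-K/W (-0.26 to 0.22), 0.04 in KO-M/V (-0.21 to 0.29) and -0.05 over both treatments (-0.20 to 0.09). The adjusted p of the last was 0.653 by limma. Over the same mice Wnt10b differed by 1.55 (SE 0.18).

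None of the 7 members passed a test of memantine in either genotype. In KO-M/V no gene of 17707 passed (0%), and 1 of the 7 members, Tcf7l2, had an unadjusted p under 0.05, against 8.88% of genes. In WT-M/V 2 of 17564 genes passed (0.0114%), and 0 of 7 members passed or had an unadjusted p under 0.05, against 3.97% of genes. Of the members, the KO-M/V differences ran from -0.19 to 0.05 and the WT-M/V differences from -0.10 to 0.10. In Veh-K/W 5 of 17671 genes passed (0.0283%) and in Mem-K/W 12 of 17646 (0.068%), with 0 of the 7 members in either by limma. At an unadjusted p under 0.05 the members counted 1 in Veh-K/W, against 14.4% of genes, and 0 in Mem-K/W, against 21% of genes.

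Levels per length were compared as normalized read counts per kilobase of annotated exon, averaged over the 12 mice. Of the 8 genes, Wnt7b was highest at 196 ± 15.5, followed by Axin2 at 173 ± 13.3, Wnt4 at 156 ± 13.9, Wnt7a at 132 ± 16.2 and Tcf7l2 at 117 ± 9.64 (SD, n = 12). Each of these overlapped its neighbour in the order. Wnt5a at 54.5 ± 5.69 lay apart below Tcf7l2, and its lower neighbours Lef1 at 35 ± 4.7 and Wnt10b at 24.7 ± 15.9 overlapped it or each other in turn. By group Wnt10b stood at 10.8 per kilobase for WT-Veh and 13.8 for WT-Mem mice, against 26 for KO-Veh and 48.2 for KO-Mem mice. In KO-Mem mice it was therefore above Lef1, at 32.7.

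The rest of the pathway was read from 8 lists by role, with 105 genes in the table. Wnt10b was left out of the counts. Of the 103 others tested for genotype, 10 passed, near the 10.8% of all genes. In KO mice 3 were upregulated, against 4.89% of all genes, and 7 were downregulated, against 5.91%. An unadjusted p under 0.05 was found for 29 of the 103, against 29.5% of all genes, and the median log2 difference was 0.03 against 0.00 over all genes. By list, 5 of 15 targets and 4 of 16 inhibitors passed, but 0 of 15 ligands, 0 of 20 receptors and 0 of 9 planar cell polarity genes. Notum and Znrf3 count in both the target and the inhibitor list, and the difference between lists was not tested. Kremen2, among the inhibitors and the 7 downregulated genes, met the filter of 10 through the WT mice alone. Without KO-Veh replicate 3 the count was 3 genes, Ccnd1, Tcf7 and Nkd1, which passed in each fit that left out 1 of the 12 mice. The other 7 lost the call in 5 to 10 of those fits.

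**Figure D2:**
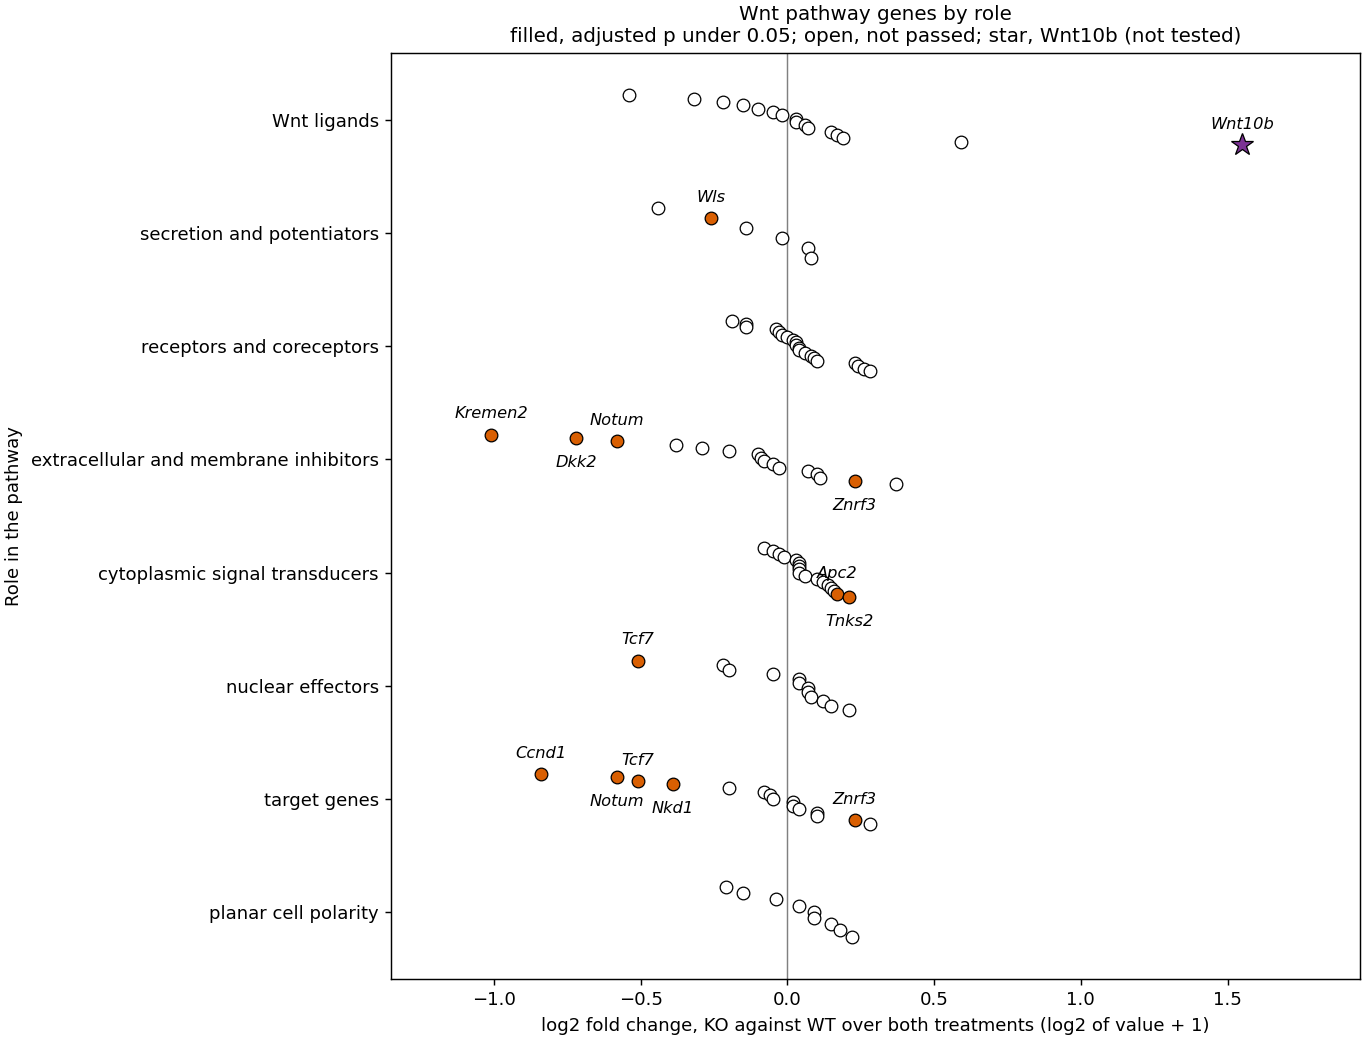
The log2 difference of KO against WT mice over both treatments (horizontal axis, log2 of value plus 1) for each tested gene of 8 lists by role (vertical axis). Filled points passed at an adjusted p under 0.05, open points did not, and the star is Wnt10b at 1.55, not tested. The filled points lie at -0.26 or lower or between 0.17 and 0.23, and genes in more than 1 list appear in each.

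Among 15 other ligands, 0 passed, against 10.8% of all genes, and the differences ran from -0.54 to 0.59. Wnt2, an endothelial growth ligand, came closest at -0.54 (SE 0.18, adjusted p = 0.0581 by limma), with 120 to 134 normalized read counts in WT mice and 47 to 120 in KO mice. Before rounding all WT mice lay above all KO mice, and the genotypes did not overlap in either direction for 4.06% of all genes. Wnt2 thus went the opposite way to Wnt10b. Wnt9a differed by 0.17 (adjusted p = 0.0748 by limma). Wnt3 and Wnt2b, which had the most normalized read counts of the rest without regard to length, differed by 0.06 and -0.02.

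In ligand secretion and potentiation, 1 of 6 genes passed, against 10.8% of all genes. Wls, the carrier that brings Wnt proteins to the cell surface, was downregulated by a log2 difference of -0.26 (SE 0.08, adjusted p = 0.0448 by limma), with 1112 to 1280 in WT mice (median 1151) and 766 to 1161 in KO mice (median 1044). The 2 lowest mice were KO-Mem at 766 and 814. Porcn, which attaches the lipid to Wnt proteins, differed by 0.07 (adjusted p = 0.342 by limma), and Rspo1, an R-spondin that potentiates signaling, by -0.44 (adjusted p = 0.061 by limma). Ndp, the Norrin ligand, differed by -0.14, and Rspo2 and Rspo3 by -0.02 and 0.08.

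Of 20 receptors and coreceptors, 0 passed, against 10.8% of all genes, and the differences ran from -0.19 to 0.28. Adgra2 (GPR124), the endothelial coactivator of Wnt7a and Wnt7b signaling, had 653 to 780 in WT and 558 to 682 in KO mice, a difference of -0.19 (SE 0.06, adjusted p = 0.068 by limma). The Frizzled genes Fzd7 and Fzd5 differed by 0.26 and 0.28 (adjusted p = 0.0802 and 0.154 by limma). Fzd3 and the coreceptor gene Lrp6 differed by 0.04 and by less than 0.01 in size, with intervals of -0.12 to 0.19 and -0.12 to 0.12.

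Of 16 secreted and membrane inhibitors, 4 passed, against 10.8% of all genes. Dkk2, a ligand of LRP5/6 that blocks canonical signaling, was downregulated by -0.72 (SE 0.21, adjusted p = 0.0448 by limma), from 33.1 to 50.3 in WT mice (median 42.9) to 16.8 to 40 in KO mice (median 25.7). Kremen2, the receptor that removes LRP6 together with Dkk proteins, was downregulated by -1.01 (SE 0.26, adjusted p = 0.0249 by limma), from 12.3 to 25.1 in WT mice to 6.86 to 13.1 in KO mice. It averaged 18.6 in WT but 8.83 in KO mice, so it met the filter of 10 through the WT mice alone, and its call is not independent of that filter. Notum, which strips the lipid from Wnt proteins, was downregulated by -0.58 (SE 0.17, adjusted p = 0.0393 by limma), from 129 to 209 (median 176) to 85.7 to 172 (median 111).
Znrf3, a ubiquitin ligase that clears Frizzled receptors, was upregulated by 0.23 (SE 0.07, adjusted p = 0.0471 by limma), from 468 to 590 in WT mice (median 515) to 562 to 677 in KO mice (median 614). WT and KO mice overlapped for all 4 genes. Frzb and Sostdc1, both secreted antagonists, differed by -0.29 and -0.38 (adjusted p = 0.0717 and 0.156 by limma), and Wif1 by 0.37 (adjusted p = 0.188 by limma). Dkk3, with the most normalized read counts of the list without regard to length, differed by -0.09 (adjusted p = 0.205 by limma). Of 6 meningeal fibroblast markers, cells that express several secreted Wnt inhibitors, 2 were downregulated, against 5.91% of all genes (median -0.32). The part of these cells in the inhibitor values was not tested. The marker sums were 6388 to 6944 for WT-Veh and 4823 to 5682 for WT-Mem mice. They were 4432 to 5045 for KO-Veh and 3527 to 5364 for KO-Mem mice, so WT-Mem overlapped both KO groups.

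Of 17 cytoplasmic transducers, 2 passed, near the 10.8% of all genes, both upregulated and both with small differences. Apc2, the neuronal relative of Apc in the destruction complex, differed by 0.17 (SE 0.04, adjusted p = 0.0268 by limma), with 7217 to 8232 in WT mice (median 7739) and 8177 to 9136 in KO mice (median 8724). Tnks2, a tankyrase that promotes the turnover of Axin, differed by 0.21 (SE 0.06, adjusted p = 0.0292 by limma), with 3956 to 5220 in WT mice (median 4667) and 5089 to 5528 in KO mice (median 5442). The genotypes overlapped for both, by 1 WT and 1 KO mouse in each. Tnks, Axin1 and Dvl3 differed by 0.14, 0.16 and 0.12 (adjusted p = 0.0914, 0.0971 and 0.108 by limma) and did not pass. β-Catenin itself, Ctnnb1, had 18391 to 21718 in WT and 20584 to 21950 in KO mice, a difference of 0.04 (95% interval -0.05 to 0.13, adjusted p = 0.531 by limma). Apc differed by 0.15 (adjusted p = 0.209 by limma).

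Of 12 nuclear effectors, only Tcf7 passed, against 10.8% of all genes. Tcf7 (TCF1), a TCF/LEF factor that is also a target, had 131, 155 and 149 for WT-Veh and 126, 127 and 126 for WT-Mem mice, against 91.9, 104 and 88.6 for KO-Veh and 89.5, 81.7 and 116 for KO-Mem mice. All KO mice lay below all WT mice, and the genotypes did not overlap in either direction for 4.06% of all genes. Tcf7 was downregulated by -0.51 (SE 0.11, adjusted p = 0.0131 by limma). The other 3 TCF/LEF genes did not pass and were Lef1 and Tcf7l2, described above, and Tcf7l1, a mostly repressive factor, at 0.21 (adjusted p = 0.224 by limma). The β-catenin coactivator genes Pygo2 and Bcl9l differed by -0.22 and 0.04, and the Groucho corepressor genes Tle3 and Tle4 by 0.08 and 0.04, none of which passed.

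Of 15 canonical targets, 5 passed, against 10.8% of all genes, 4 of them downregulated, and 3 of the 5, Tcf7, Notum and Znrf3, also stand in lists above. Ccnd1, the G1 cyclin D1, had 1247, 1619 and 1237 for WT-Veh and 1354, 1340 and 1298 for WT-Mem mice, against 931, 706 and 792 for KO-Veh and 618, 760 and 743 for KO-Mem mice. Every KO mouse lay below every WT mouse, and the genotypes did not overlap in either direction for 4.06% of all genes. The log2 difference over both treatments was -0.84 (SE 0.08, adjusted p = 0.000324 by limma), and Ccnd1 was the only list gene to pass in Mem-K/W, at -0.92 (SE 0.10, adjusted p = 0.0101 by limma, and 0.0531 with the replicate number as a block). Ccnd1 lies 0.505 Mb from Shank2 on chromosome 7, so sequence carried along with the targeted locus and the loss of Shank2 itself cannot be told apart here. Of 5 markers of the oligodendrocyte precursor lineage, which includes cells that divide and express cyclin D1, 1 was downregulated (median -0.15). Over all genes the share downregulated was 5.91%. The log2 difference was negative for 4 of the 5 and positive for 1. The marker sums were 12069 to 13378 for WT-Veh and 12187 to 12297 for WT-Mem mice, against 10689 to 11404 for KO-Veh and 8922 to 10648 for KO-Mem mice. Gpr17 averaged 5792 in WT and 4374 in KO mice, while Pdgfra averaged 2199 and 2214. The part of these cells in the Ccnd1 value was not tested.

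Nkd1, a feedback inhibitor that binds Dishevelled, had 772, 844 and 854 for WT-Veh and 702, 645 and 859 for WT-Mem mice, against 605, 632 and 606 for KO-Veh and 474, 595 and 665 for KO-Mem mice. KO-Veh lay below all WT mice, and KO-Mem overlapped WT-Mem. It was downregulated by -0.39 (SE 0.08, adjusted p = 0.0151 by limma). Its relative Nkd2 differed in the other direction, by 0.28 (SE 0.09, adjusted p = 0.0692 by limma), and did not pass. The target genes Apcdd1, Lgr5, Tnfrsf19 and Myc differed by -0.08, 0.10, 0.02 and -0.06, all with adjusted p above 0.3 by limma. The median of the 15 targets was -0.05. Of the genes that passed, Ccnd1, Tcf7, Apc2, Kremen2, Notum and Wls overlap an annotated gene on the other strand by gene bounds. Nkd1, Tcf7 and Wls overlap one on their own strand.

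**Figure D3:**
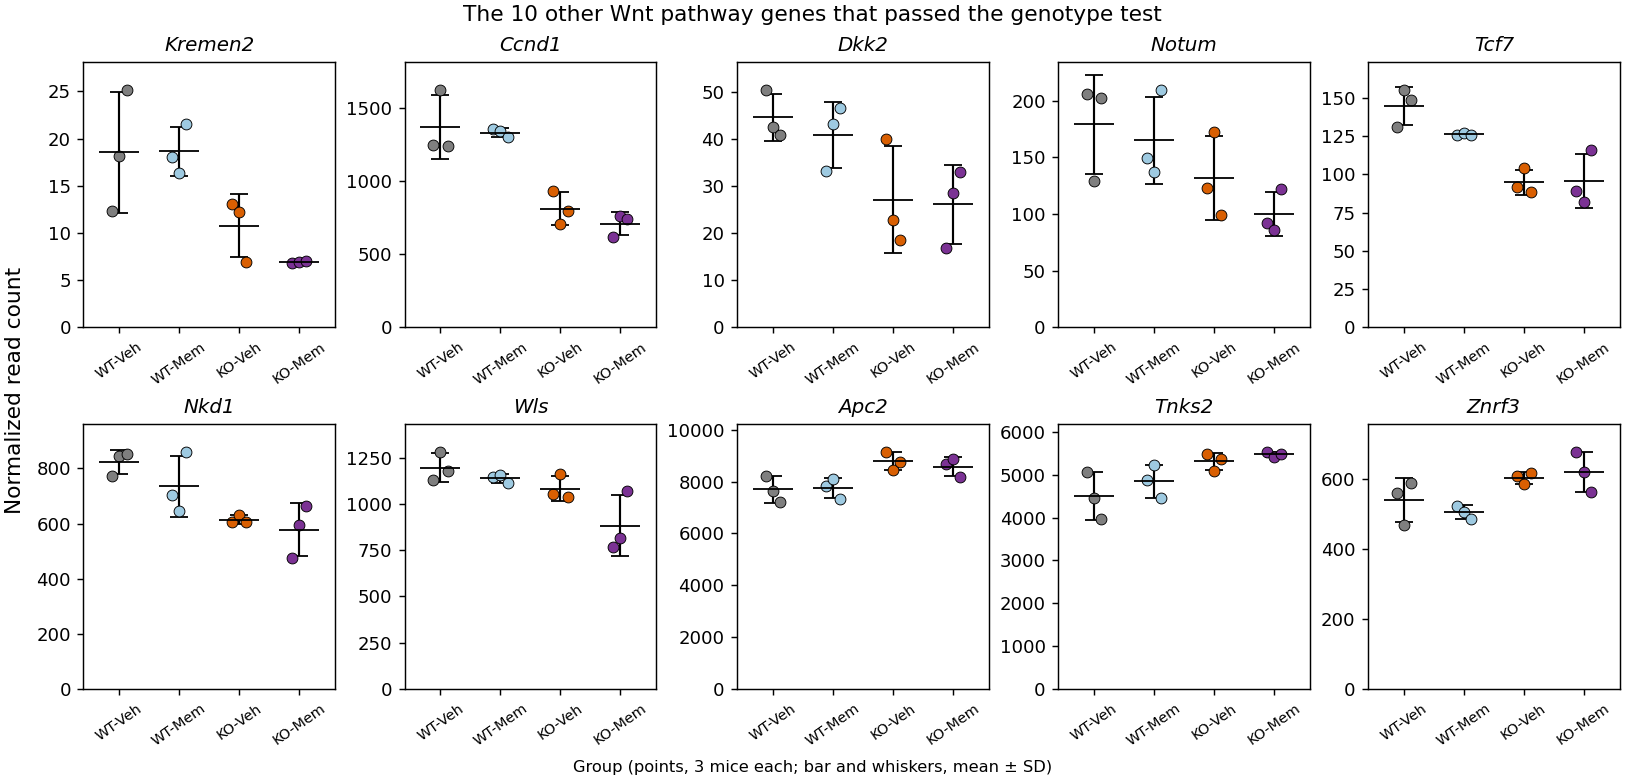
Normalized read counts (vertical axes, each starting at 0) in each mouse for the 10 list genes that passed the genotype test, with the 4 groups along the horizontal axes. Points are mice, and the bar with whiskers is the mean ± SD of 3 mice. The 7 downregulated genes, from Kremen2 to Wls, come before the 3 upregulated genes, Apc2, Tnks2 and Znrf3. WT and KO mice are apart only for Ccnd1 and Tcf7, as for 4.06% of all genes.

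Of 9 planar cell polarity genes, which act in a β-catenin-independent branch, 0 passed, against 10.8% of all genes. An unadjusted p under 0.05 was found for 4 of them, against 29.5% of all genes. Vangl2, a core polarity protein, differed by 0.22 (adjusted p = 0.0606 by limma), Daam2 by -0.21 (adjusted p = 0.072 by limma) and Prickle2 by 0.15 (adjusted p = 0.109 by limma). The cadherins Celsr2 and Celsr3 differed by 0.09 and 0.18 (adjusted p = 0.416 and 0.138 by limma).

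No list gene passed a test of memantine. In KO-M/V 0 of 102 list genes passed and 5 had an unadjusted p under 0.05, against 8.88% of genes. In WT-M/V 0 of 103 passed and 2 had an unadjusted p under 0.05, against 3.97% of genes. In the fit of memantine over both genotypes 0 of 103 passed, as for all genes (0%), and 6 had an unadjusted p under 0.05, against 8.6% of genes. The interaction called no gene of 17655 (0%), and 4 of the 103 list genes had an unadjusted p under 0.05, against 4.76% of genes.

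The genes whose pattern was most like that of Wnt10b were not Wnt genes. By Pearson correlation of log2 values over the 12 mice, the 10 most alike of 14240 genes with a mean of at least 50 were Zfp316 (r = 0.946), Cirbp (0.943), Nemf (0.939), Rbm3 (0.939), Sirt6 (0.938), Fto (0.934), Hmgb3 (0.933), Timm44 (0.931), Ets2 (0.931) and Pms2 (0.928). In all, 48 genes had r above 0.9, and the median size of r was 0.456. The 12 mice share the 4-group design, so much of r follows the group means, and these values are a description. Cirbp and Rbm3 both encode cold-inducible RNA-binding proteins. Cirbp averaged 1349 ± 135 for WT-Veh and 1435 ± 191 for WT-Mem mice, against 1917 ± 218 for KO-Veh and 2381 ± 450 for KO-Mem mice (SD, n = 3). Rbm3 averaged 2086 ± 400, 2437 ± 339, 3171 ± 390 and 3765 ± 434 in the same order. In both, every KO mouse lay above every WT mouse, and the genotypes did not overlap in either direction for 4.06% of all genes. KO-Veh and KO-Mem overlapped for Cirbp, Rbm3 and Nemf. The 2 KO groups did not overlap for Wnt10b, nor for Zfp316, Sirt6, Fto, Hmgb3, Timm44, Ets2 and Pms2, as for 13.9% of all genes. The genotype differences, 0.61 (SE 0.09) for Cirbp and 0.62 (SE 0.10) for Rbm3, were smaller than the 1.55 of Wnt10b. The direction of these differences follows from the choice of both genes by likeness to Wnt10b. That choice also largely fixes the lack of overlap in the genes named here. The shares of all genes therefore only place these genes.

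**Figure D4:**
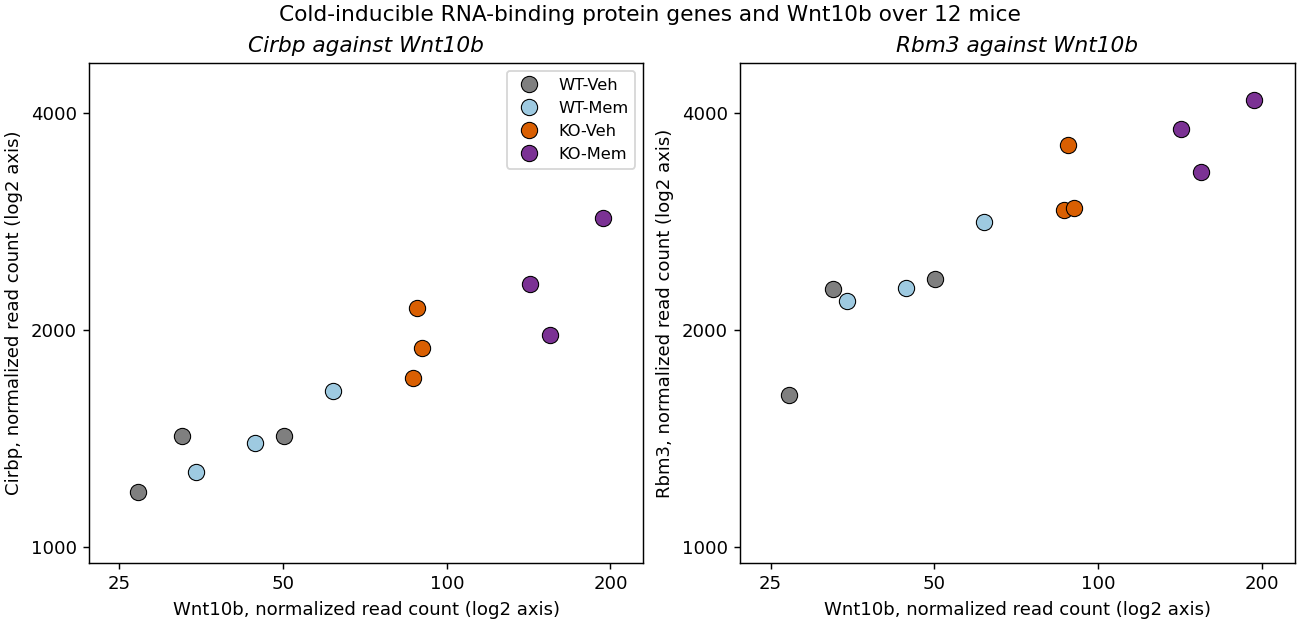
Cirbp (left) and Rbm3 (right) against Wnt10b, as normalized read counts on log2 axes. Each point is 1 of 12 mice, coloured by group. The 6 WT mice sit at the lower left and the 6 KO mice at the upper right of both panels, with KO-Mem farthest along the Wnt10b axis at 142 to 194.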

How the data were processed

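The authors prepared libraries with the TruSeq RNA v2 kit, which does not keep strand, quantified transcripts with Salmon 1.1.0 against GRCm38 and collapsed these to genes by tximport. The deposited signal values are these estimates after scaling by the normalization factors of DESeq2, on a linear scale and not whole. The submitters' notes name DESeq2 1.26.0 under R 3.6.2, and the methods name other versions. The annotation release is not given in the sources used here. Symbols, positions and exon lengths are from GENCODE M21, which matched 19295 of 19312 genes, and all 12 columns were matched to mice by their labels.

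Genes with a mean of at least 10 were tested with limma 3.58.1 (R 4.3.3, with a mean-variance trend), with log2 values taken after adding 1, and with Benjamini-Hochberg adjustment over all genes and a threshold of 0.05. Each 2-group comparison used its 6 mice; genotype, memantine and their interaction used all 12. The fits were tested on simulated data. Alternatives were a pseudocount of 5, no filter or a filter of 50, equal sums, a 4-group model, a replicate block and leaving out each mouse.

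The members and lists were chosen with earlier results of these data known. Genes were named by rule: the members, every list gene that passed, the 3 with the smallest p and the 2 most abundant others per list, the 10 most like Wnt10b and its 4 neighbours. The markers set beside a result were taken by list.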

Additional observations from a re-analysis of the deposited data

Results flagged for a closer look

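Ctnnb1 was singled out because its genotype difference had opposite signs under the 2 treatments with no overlap in either: the log2 difference was 0.13 in Veh-K/W and -0.04 in Mem-K/W. The test of that difference, the interaction, gave -0.17 (SE 0.07) with an unadjusted p of 0.0343 and an adjusted p of 0.947 by limma, and so did not pass. Ctnnb1 was picked from the same values, so this is not an independent test. No overlap was found for 3608 of 17671 genes in Veh-K/W and for 4615 of 17646 in Mem-K/W. With 3 mice in each group, no test for an outlying mouse within a group was run.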

How the results depend on the processing

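With 3 mice in a group, the genotype call of most pathway genes turned on single mice. Ccnd1, Tcf7 and Nkd1 kept theirs in all 12 fits that left out 1 mouse, and the other 7 lost it in 5 to 10 of them. The count of 10 genes became 3 without KO-Veh replicate 3 or KO-Mem replicate 2, 4 without KO-Mem replicate 1, WT-Mem replicate 1 or WT-Mem replicate 3, 5 without WT-Veh replicate 2, 6 without KO-Veh replicate 1 or WT-Mem replicate 2, and 16 without KO-Mem replicate 3. In Mem-K/W the count of 1 gene became 0 without WT-Mem replicate 2 or KO-Mem replicate 2, and 5 without KO-Mem replicate 3. The cause was not tested.

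The other settings gave 7 to 11 genes for genotype: 10 with a pseudocount of 5, 9 with no filter, 8 with a filter of 50, 11 with equal sums, 8 in the 4-group model and 7 with the replicate number as a block. Dkk2 was lost in the block and the 4-group model, Wls with equal sums and the block, and Znrf3 with no filter, the block and the 4-group model. Equal sums added Tcf7l2 and Vangl2, giving 5 upregulated and 6 downregulated list genes, and moved the upregulated share of all calls from 45.3% to 56.4%. Under the block the Mem-K/W count was 0, and Ccnd1 there had an adjusted p of 0.0531 by limma. Mice that share a replicate number did not deviate together (correlations of -0.175 to 0.08), so the number was not read as a pairing, and the block changed no call of the 7 members. With equal sums the Mem-K/W difference of Axin2 was 0.00 in place of -0.02. The differences of Wnt10b kept their direction under each of these settings that was run for it, a pseudocount of 5 and equal sums.

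Leaving out 1 mouse turned the sign of 18 differences of the members, none of them called. The ranges were -0.06 to 0.09 for Wnt4 in Veh-K/W and -0.07 to 0.00 for memantine over both genotypes, -0.02 to 0.12 for Wnt5a in KO-M/V and -0.13 to 0.03 in the interaction, -0.02 to 0.06 for Wnt7b in Veh-K/W and -0.08 to 0.00 in WT-M/V. Those of Wnt7a were -0.16 to 0.01 in Veh-K/W, -0.27 to 0.02 in KO-M/V, -0.10 to 0.06 in WT-M/V and -0.23 to 0.06 in the interaction. Those of Axin2 were -0.10 to 0.10 in Mem-K/W, -0.05 to 0.16 in KO-M/V, -0.07 to 0.02 in WT-M/V, -0.04 to 0.06 for memantine over both genotypes and -0.02 to 0.19 in the interaction. Those of Lef1 were -0.06 to 0.13 in KO-M/V, -0.20 to 0.01 in WT-M/V and -0.08 to 0.01 for memantine over both genotypes. Depth limits the genes with few reads, Wnt10b, Wnt1, Dkk2 and Kremen2 among them, each with a mean under 100 in WT mice.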
